A study of Homo sapiens with 20 samples.

Results

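The mitochondrial ribosomal protein genes were taken as every gene symbol that begins with MRPL or MRPS, continues with a number and at most 1 letter, and has at least 1 curated coding transcript (an NM_ entry). This rule used no measured value. It found 78 genes among the 46425 gene symbols in the tables, of which 49 were named MRPL (large subunit) and 29 MRPS (small subunit). Their 244 transcripts, 153 of them NM_ entries, were summed by gene symbol, and the 78 genes lie on 21 chromosomes.

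The RNA came from wild-type HUDEP-2 cells, an immortalized erythroid progenitor line made from human umbilical cord blood, in the course of erythroid differentiation. Libraries were made on days 0 to 8 and on day 12, with 2 libraries on each of 10 days and 20 libraries in all. The study names day 0 the proerythroblast stage (Pro-E), days 4 to 6 the early and late basophilic stage (EB/LB), day 8 the polychromatic stage (Poly) and day 12 the orthochromatic and reticulocyte stage (Ortho). Cells were expanded in StemSpan SFEM with erythropoietin, stem cell factor and doxycycline (and, per the study's methods, dexamethasone), and differentiation was begun by a change to another medium (IMDM with holo-transferrin, human AB serum, heparin, insulin and L-glutamine, beside erythropoietin, stem cell factor and doxycycline). Stem cell factor was left out from day 6 and doxycycline, which keeps the immortalizing genes on, from day 8, so that days cannot be told apart from these changes of medium. The labels do not state in which medium the day 0 cells were harvested, so that a change from day 0 may include the change from expansion medium. A single line stands for the lineage, so that p-values measure the spread between libraries of this line, and the labels do not say whether the libraries of a day were separate cultures. The columns sit in 2 sets of tables, a set of tables of separate days and a table that spans all days, and each day has a library in each. The tables of separate days hold days 0 to 6, days 7 and 8, and day 12. In that set, comparisons of day 8 with earlier days and of day 12 with day 8 cross tables. A difference between tables cannot be told apart from them there, and the labels do not say whether a table was a batch. Values of a day are given in this order, the library of the separate tables before the library of the table of all days.

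Library totals ran from 52131713 to 70358198 counts. The 10 erythroid markers (globins, ALAS2, SLC4A1, GATA1, KLF1 and EPOR) were all higher on day 8 than on day 0, and of 7 markers of other blood and stromal cells only CD14 and CD68 had enough counts to be tested, with neither called between day 8 and day 0. CD68 read 3.25 and 1.89 TPM on day 8 and 3.86 and 2.55 on day 12 and was called higher on day 12 on counts (1.69 on the log2 scale), and CD3E, MS4A1 and PF4 were listed at 0 on days 0, 8 and 12. The part of other cells in the results was not tested. Globin genes took 0.859% and 0.819% of the counts on day 0 and 28.2% and 33.7% on day 12. Nuclear ribosomal RNA took 17.6% of the counts of the day 7 library and 16.8% of the day 8 library in the tables of separate days, against 0.737% to 2.68% in the other 18 libraries. Both of these libraries come from the same separate table, which holds no other day. For the comparisons of day 8 with day 0 and with days 4 to 6, counts of calls are also given without these 2 libraries, which leaves day 8 with 1 library.

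Mitochondria carry their own ribosome, which translates the few proteins encoded by mitochondrial DNA, all of them subunits of the respiratory chain and ATP synthase. Its RNAs come from mitochondrial DNA, whereas every protein of the ribosome is encoded in the nucleus, made in the cytosol and imported. Erythroid precursors need mitochondria for heme synthesis and iron-sulfur clusters and clear them at the end of maturation.

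The start regions of these genes are shown first, because the genes share letters there that the rule did not use. RefSeq promoter windows (GRCh38.p14, 250 bases before to 50 after a start) were found for 69 of the 78 members, with 85 windows in all. The letters CCGGAAG, read by ETS factors such as GABPA, were present on either strand in 38.8% of the members' windows, against 16.7% of the 16873 windows of all genes tested and 10.3% of all 35116 windows. The YY1 letters AAGATGGCG were present in 15.3% against 3.27% of the windows of tested genes. The NRF1 letters GCGCNTGCG were present in 15.3% against 12.6%, the NFY letters CCAAT in 32.9% against 34.7%, the E-box CACGTG in 10.6% against 9.54%, and the SP1 letters GGGCGG in 60% against 64.3%. None of these 6 motifs contains another. A match describes the letters and is not a binding site.

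Each of the following stretches lies just upstream of a start, is written 5′ to 3′ on the strand of the gene, and has the motif letters in capitals. Only members that hold ETS, YY1 or NRF1 letters are shown, so that the choice says nothing of a link between letters and change. MRPS2, with the second largest fall from days 4 to 6 to day 8, holds none of these letters in its windows. Nor do MRPL41 and MRPL39, with the second largest rise and fall from day 8 to day 12. MRPS26 (chr20:3045962-3046041, plus strand) and MRPS23 (chr17:57850045-57850124, minus strand) had the largest and the third largest fall from days 4 to 6 to day 8. Both hold the ETS letters on the reverse strand (CTTCCGG). MRPL17 (chr11:6683355-6683434, minus strand) had the largest fall from day 8 to day 12 and holds the NRF1 letters at 2 places, the first of which reads the same on both strands. MRPL53 (chr2:74472726-74472805, minus strand) had the largest rise from day 8 to day 12 and holds the ETS letters, and MRPL52 (chr14:22829772-22829851, plus strand), chosen after its values were seen, fell by day 8, rose on day 12 and holds the YY1 letters at 2 places.
MRPS26: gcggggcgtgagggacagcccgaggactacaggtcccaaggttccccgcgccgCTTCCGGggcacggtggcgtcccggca
MRPS23: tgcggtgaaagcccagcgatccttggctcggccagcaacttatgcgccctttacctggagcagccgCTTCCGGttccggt
MRPL17: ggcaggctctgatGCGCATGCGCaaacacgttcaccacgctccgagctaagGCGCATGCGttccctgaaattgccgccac
MRPL53: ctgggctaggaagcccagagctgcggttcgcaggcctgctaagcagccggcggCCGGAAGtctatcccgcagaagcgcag
MRPL52: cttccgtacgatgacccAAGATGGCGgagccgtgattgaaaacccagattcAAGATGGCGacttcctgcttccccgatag
The letters were found in members of both directions. Of the 18 windows of members that rose from day 8 to day 12, 8 held the ETS letters and 2 the YY1 letters, and of the 44 windows of members that fell, 17 held the ETS letters and 5 the YY1 letters.

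Many members start close to another gene that runs the opposite way. This was so within 1000 bases for 27 of the 69 members with a promoter entry (39.1%), against 30.7% of tested genes with an entry. MRPL46 (chr15:88459478-88467388, minus strand) and MRPS11 (chr15:88467708-88480776, plus strand), named here for their shared start region, are such a pair within the family. MRPL46 read 24.1 and 20.4 CPM on day 0, 12.8 and 13.7 on day 8, and 10.3 and 15.7 on day 12, where CPM is the count relative to the TMM-scaled library size, TMM being a correction for composition between libraries. MRPS11 read 31.0 and 30.3 CPM on day 0, 24.1 and 27.4 on day 8, and 12.4 and 16.9 on day 12. MRPL46 thus fell by 0.74 ± 0.18 (log2, SE) from day 0 to day 8 (adjusted p = 0.00657) and was not called afterwards, whereas MRPS11 was not called from day 0 to day 8 and fell by 0.81 ± 0.16 from day 8 to day 12 (adjusted p = 5.62e-04). The day 8 change of MRPL46 was -0.67 and not called without the ribosomal RNA-rich libraries (adjusted p = 0.0663). The difference between the neighbors was not tested.

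Together, the 78 genes took a shrinking share of the RNA as the cells matured. In the libraries of the separate tables their share of all counts was 0.585% on day 0, 0.449% on day 6, 0.246% on day 8 and 0.138% on day 12. In the table of all days it was 0.529%, 0.461%, 0.353% and 0.140% on the same days. Both series fell, with the day 7 and day 8 libraries rich in ribosomal RNA lying lowest for their day. Summed as TPM, a level per transcript length, the members read 8473 ± 415 (mean ± SD, n = 2) on day 0, 3961 ± 846 on day 8 and 1437 ± 40.6 on day 12. With globin genes left out and TPM rescaled, the sums were 8727 ± 428, 5458 ± 916 and 3709 ± 135, so that a fall of the sum remained beside the rise of globin. Cytosolic ribosomal protein genes, given for comparison on this rescaled level, read 195653 ± 8915 on day 0, 200720 ± 11358 on day 8 and 163506 ± 21199 on day 12. Nuclear genes of the respiratory chain and ATP synthase read 22504 ± 1464, 17345.5 ± 3155 and 13180 ± 775 on these days. The mRNAs of mitochondrial DNA read 68312 ± 349, 44265 ± 1482 and 14110 ± 3039. A fall of the sum was thus not particular to the members. In bulk RNA, fewer cells that hold a transcript and less of it per cell cannot be told apart.

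Levels differed widely between members. On day 0 the median member read 100.1 TPM, from 13.0 for MRPS33 to 486 for MRPL16. The 3 members with the highest mean over the 20 libraries were MRPL37 (256 TPM), MRPL3 (215 TPM) and MRPL16 (198 TPM), and the 3 lowest were MRPS33 (10.3 TPM), MRPL42 (10.9 TPM) and MRPS14 (12.7 TPM). The upper quartile of the members' TPM was 2.56 times the lower quartile on day 0, 2.27 times on day 8 and 5.36 times on day 12, so that members lay further apart on the last day. The mean normalized CPM was highest on day 0 for 18 members, on day 1 for 28, on day 2 for 9 and on day 12 for 10. It was lowest on day 12 for 52 members and on day 8 for 14.

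**Figure D1:**
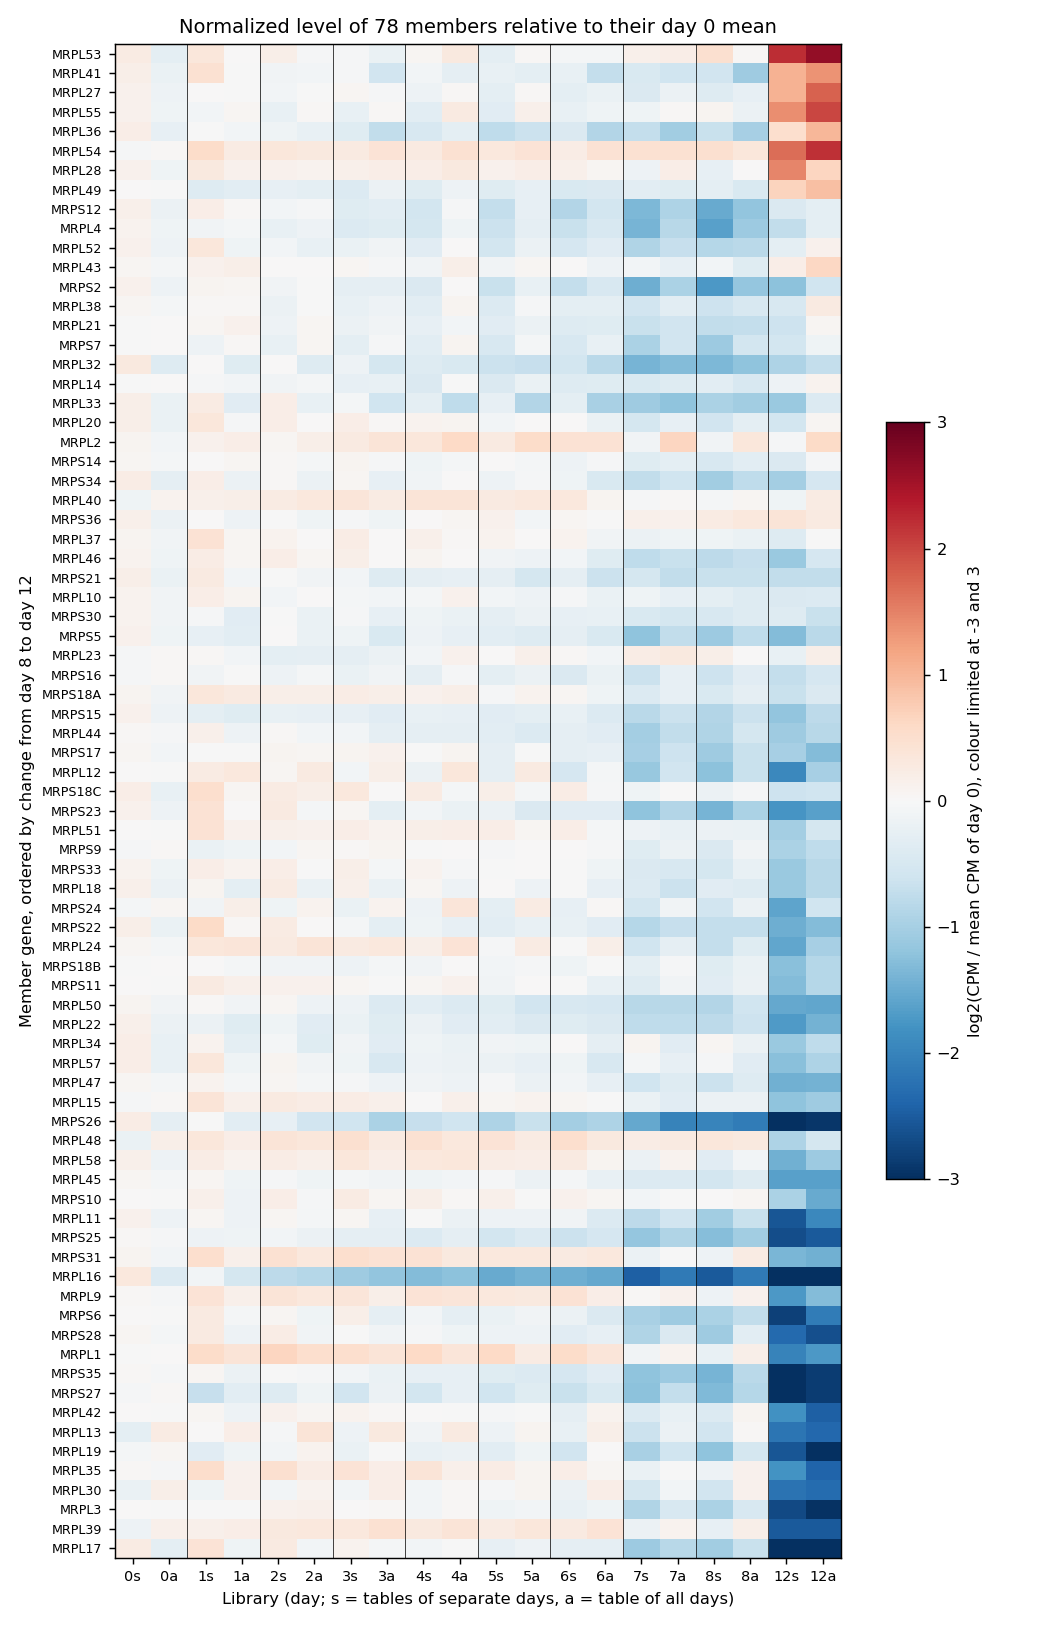
Normalized CPM of the 78 members (rows, ordered by their change from day 8 to day 12) in the 20 libraries (columns, by day), as the log2 ratio to the member's own day 0 mean, with red for higher, blue for lower and color limited at 3 on the log2 scale. Most members lay near their day 0 level until day 6, and on day 12 the top 8 rows, all MRPL genes, lay above it while most rows lay below it.

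Between day 0 and day 8, the proerythroblast and the polychromatic stage, 42 of the 78 members fell and none rose at an adjusted p under 0.05 in edgeR's quasi-likelihood test. Over all 16784 genes tested, 19.4% were called lower and 17.7% higher. DESeq2 called 45 members lower and none higher, with 3788 of 16784 genes lower and 3226 higher. The members' median log2 fold change was -0.43, against 0.00 over all genes. Among MRPL genes 23 of 49 fell (median -0.36), and among MRPS genes 19 of 29 (median -0.67). In 10 members the fall was at least 2-fold, a count that was not made over all genes. The number of calls depended on single libraries. Without the day 7 and 8 libraries rich in ribosomal RNA 19 of the 42 were still called lower, 23 were not called but kept the sign, and none was called higher (1916 of 17498 genes were called lower). Fewer members were also called lower without the day 0 library of the separate tables, where the members' median was -0.41 against 0 over all genes. The same was so without their day 8 library, with medians of -0.38 and -0.03. In all 16 fits on counts, 13 members were called lower, namely MRPL4, MRPL16, MRPL32, MRPL50, MRPS2, MRPS5, MRPS12, MRPS15, MRPS17, MRPS23, MRPS26, MRPS27 and MRPS35. Genes outside the members were not counted in this way.

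MRPL16, a large-subunit protein with a bacterial counterpart, read 265 and 162 CPM on day 0, between 73.6 and 91.4 (median 78.5) in the 6 libraries of days 4 to 6, 37.1 and 49.3 on day 8, and 15.8 and 15.4 on day 12. Every stage lay below the previous stage without overlap, although the day 0 libraries differed between themselves. Its fall from day 0 to day 8 was 2.31 ± 0.22 (log2, SE), with an adjusted p of 8.66e-06. MRPS26, a small-subunit protein found in mitochondrial and not in bacterial ribosomes, read 36.4 and 25.6 CPM on day 0, between 15.2 and 20.5 (median 17.8) on days 4 to 6, 7.87 and 7.29 on day 8, and 3.55 and 4.12 on day 12. MRPS26 was called lower in all 4 comparisons, as were MRPL16 and MRPS25, although with NM_ transcripts alone MRPS25 was called only from day 8 to day 12 and its change from day 0 to day 8 was -0.22 (adjusted p = 0.574). MRPS26 fell by 2.03 ± 0.23 from day 0 to day 8 (adjusted p = 2.46e-05). Without the ribosomal RNA-rich libraries the changes of MRPL16 and MRPS26 were -2.09 and -2.06.

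MRPS2, a small-subunit protein with a bacterial counterpart, read 93.4 and 76.7 CPM on day 0, 25.6 and 38.0 on day 8 and 36.1 and 56.1 on day 12. Its day 0 and day 8 libraries did not overlap, those of days 8 and 12 did, and it fell by 1.42 ± 0.26 (log2, SE) to day 8 (adjusted p = 0.00102) with no call from day 8 to day 12. MRPS12, part of the decoding center and linked to antibiotic resistance in bacteria, read 56.3 and 45.2 CPM on day 0, 17.8 and 22.4 on day 8 and 37.8 and 41.7 on day 12. It thus fell by 1.34 ± 0.22 and then rose by 0.99 ± 0.22 (adjusted p = 4.53e-04 and 0.00158). The falls of MRPS2 (-1.14, adjusted p = 0.0165) and MRPS12 (-1.16, adjusted p = 0.0101) were still called without the ribosomal RNA-rich libraries, as was the rise of MRPS12. Of the 42 members that were lower on day 8 than on day 0, 18 fell again from day 8 to day 12, 16 were not called and 8 rose. Of the other 36, 21 fell from day 8 to day 12, 6 rose and 9 were not called. Such a split was not made over all genes. These comparisons share the day 8 libraries, so that a low day 8 value moves them in opposite directions.

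**Figure D2:**
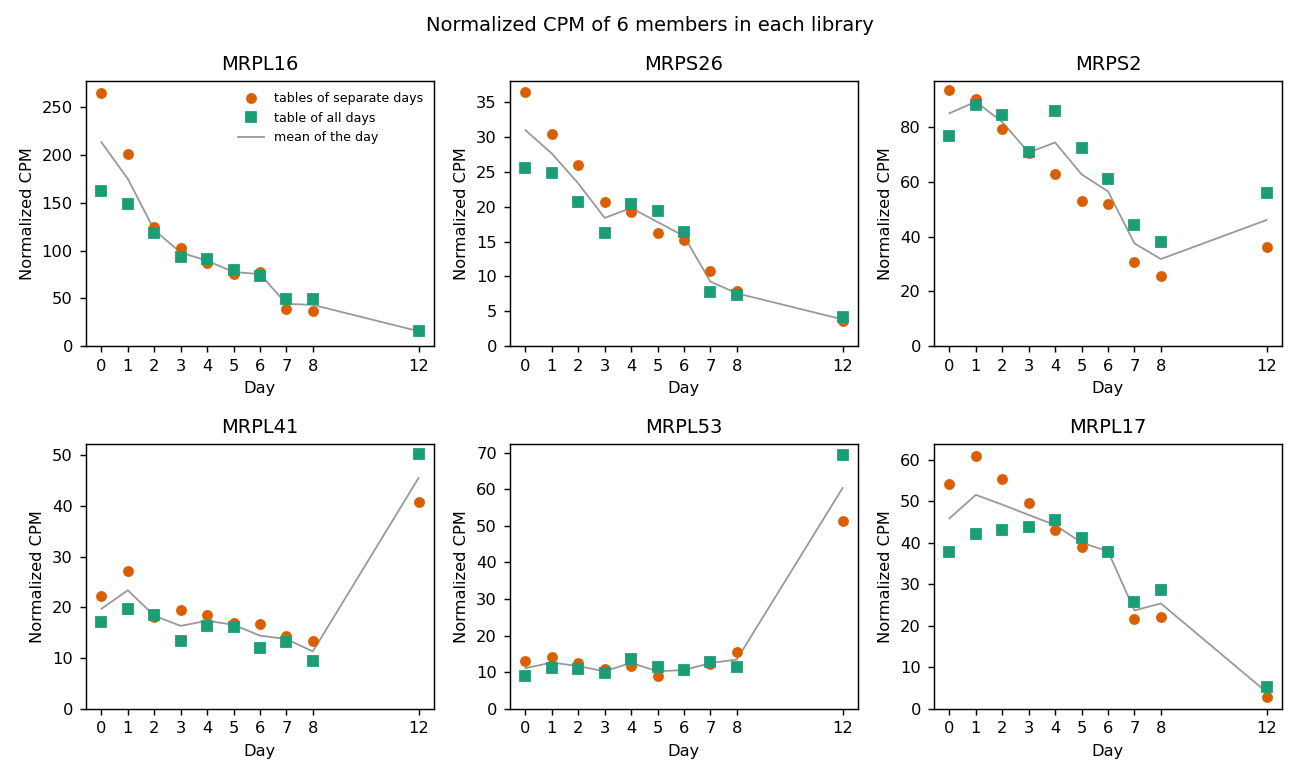
Normalized CPM of MRPL16, MRPS26, MRPS2, MRPL41, MRPL53 and MRPL17 in each library by day, with circles for the tables of separate days, squares for the table of all days and a line through the mean of each day. MRPL16 and MRPS26 fell from stage to stage, MRPL41 and MRPL53 were highest on day 12, and MRPL17 was lowest there.

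From day 0 to days 4 to 6, the basophilic stage, few members changed. At an adjusted p under 0.05 in the same test, 7 members fell and 1 rose, against 9.22% of all genes lower and 7.38% higher, and the members' median was -0.12 against -0.01. The members that fell were MRPL16 (-1.41 ± 0.16), MRPS26 (-0.81 ± 0.17), MRPL32 (-0.59 ± 0.17), MRPL36, MRPS25, MRPL50 and MRPL49. MRPL32, which is cut to its mature form by the m-AAA protease before the large subunit is assembled, read 49.0 and 30.4 CPM on day 0 and between 22.8 and 30.4 (median 26.2) on days 4 to 6, so that the groups touched. The member that rose was MRPL1, a protein of the stalk where transfer RNA leaves, with 26.3 and 26.5 CPM on day 0 and between 31.5 and 39.7 (median 36.3) on days 4 to 6 (0.46 ± 0.14, adjusted p = 0.0429). Without the day 0 library of the separate tables only 1 member, MRPL16, was called lower and MRPL1 was not called. Calls of falling members ranged from 1 to 7 as single libraries were left out. MRPL16 was the member called lower in all 19 count-based fits.

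From days 4 to 6 to day 8, 31 members fell and none rose, against 10.8% of all genes lower and 11.9% higher, with a median of -0.36 against 0.01. DESeq2 called 44 members lower and none higher, with 2658 of 16784 genes lower and 2212 higher. The largest falls were those of MRPS26 (-1.23 ± 0.19, adjusted p = 0.00114), MRPS2 (-1.01 ± 0.22) and MRPS23 (-0.90 ± 0.18). MRPS23, a small-subunit protein without a bacterial counterpart, read between 53.5 and 67.9 CPM (median 59.8) on days 4 to 6 and 27.2 and 37.2 on day 8, without overlap. This count rested on a single library. Without the separate-table library of day 8, only 2 members were called lower, and likewise without both ribosomal RNA-rich libraries, when 330 of 17498 genes were called lower in all. MRPS26 kept its fall in that setting (-1.28, adjusted p = 0.0204). The part that the ribosomal RNA in these libraries had in the other calls was not tested.

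From day 8 to day 12, the last stage, members moved in both directions. At an adjusted p under 0.05, 39 fell and 14 rose, against 33.4% of all genes lower and 23.8% higher. Changes were at least 2-fold in 22 of the members that fell and 8 of those that rose, counts that were not made over all genes. The members' median was -0.51 and that of all genes -0.20, and the members' SD was 1.11 against 2.76 over all genes. By name, 13 of the 14 members that rose were MRPL genes, with 24 MRPL and 15 MRPS genes among those that fell. The balance depended on the scale. As log2(TPM + 1) in limma, which is lowered for every gene as globin grows, 2 members were higher and 68 lower, the median over all genes was -0.68 and the members' median was -1.62. Calls of higher members were 26.4% of the members' calls on counts and 2.86% on TPM, and over all genes 41.6% and 13.5%. Relative to the median of all genes, the members' median was -0.31 on counts and -0.94 on TPM. Calls on counts ranged from 9 to 16 higher and from 34 to 40 lower as single libraries were left out, with 9 higher without the day 12 library of the table of all days, and without the ribosomal RNA-rich libraries 11 were higher and 39 lower.

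MRPL53, a large-subunit protein found in mitochondrial and not in bacterial ribosomes, read 13.2 and 9.04 CPM on day 0, 15.5 and 11.5 on day 8, and 51.2 and 69.4 on day 12. Day 12 lay above all other libraries, and the rise from day 8 was 2.16 ± 0.23 (log2, SE, adjusted p = 3.23e-06). MRPL41, likewise specific to the mitochondrial ribosome, read 22.3 and 17.2 CPM on day 0, 13.3 and 9.36 on day 8, and 40.8 and 50.2 on day 12, a rise of 2.01 ± 0.25 (adjusted p = 1.28e-05) after a fall of 0.80 ± 0.24 by day 8. On the TPM scale these were the members that remained higher, by 0.70 for MRPL53 and 0.56 for MRPL41 (limma, adjusted p = 0.00216 and 0.0104). MRPL27, which in bacteria reaches into the peptidyl transferase center, read 34.9 and 28.7 CPM on day 0, 24.3 and 26.7 on day 8, and 66.0 and 108 on day 12. It rose by 1.77 ± 0.21 on counts, and its TPM change of 0.28 was not called (adjusted p = 0.198). MRPL36, MRPL54, MRPL28, MRPL49 and MRPS12 also rose in all 15 count-based fits, whereas MRPL55, MRPL4, MRPL52, MRPL43, MRPL21 and MRPL14 lost the call in at least 1 of them.

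The deepest falls on day 12 were in large-subunit genes. MRPL17, which lies near the exit of the peptide tunnel, read 54.1 and 37.7 CPM on day 0, 22.1 and 28.7 on day 8, and 2.77 and 5.25 on day 12. The day 12 libraries lay far below the rest, and the fall from day 8 was 2.66 ± 0.29 (adjusted p = 3.36e-06). Its count of 86 in the day 12 library of the separate tables was the lowest of any member in any library. MRPL39 read 50.3 and 62.0 CPM on day 0, 47.3 and 63.5 on day 8, and 9.74 and 9.72 on day 12. All libraries of days 1 to 6 read between 62.5 and 77.1 CPM, above those of day 0. The day 8 libraries lay on both sides of those of day 0, and from day 8 MRPL39 fell by 2.51 ± 0.17 (adjusted p = 3.09e-08). MRPL3, beside the peptidyl transferase center, read 201 and 201 CPM on day 0, 104 and 145 on day 8, and 30.8 and 25.7 on day 12, a fall of 2.14 ± 0.17 from day 8 (adjusted p = 1.68e-07). In all 15 count-based fits 28 members were called lower and 8 higher, with no such count made over all genes.

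**Figure D3:**
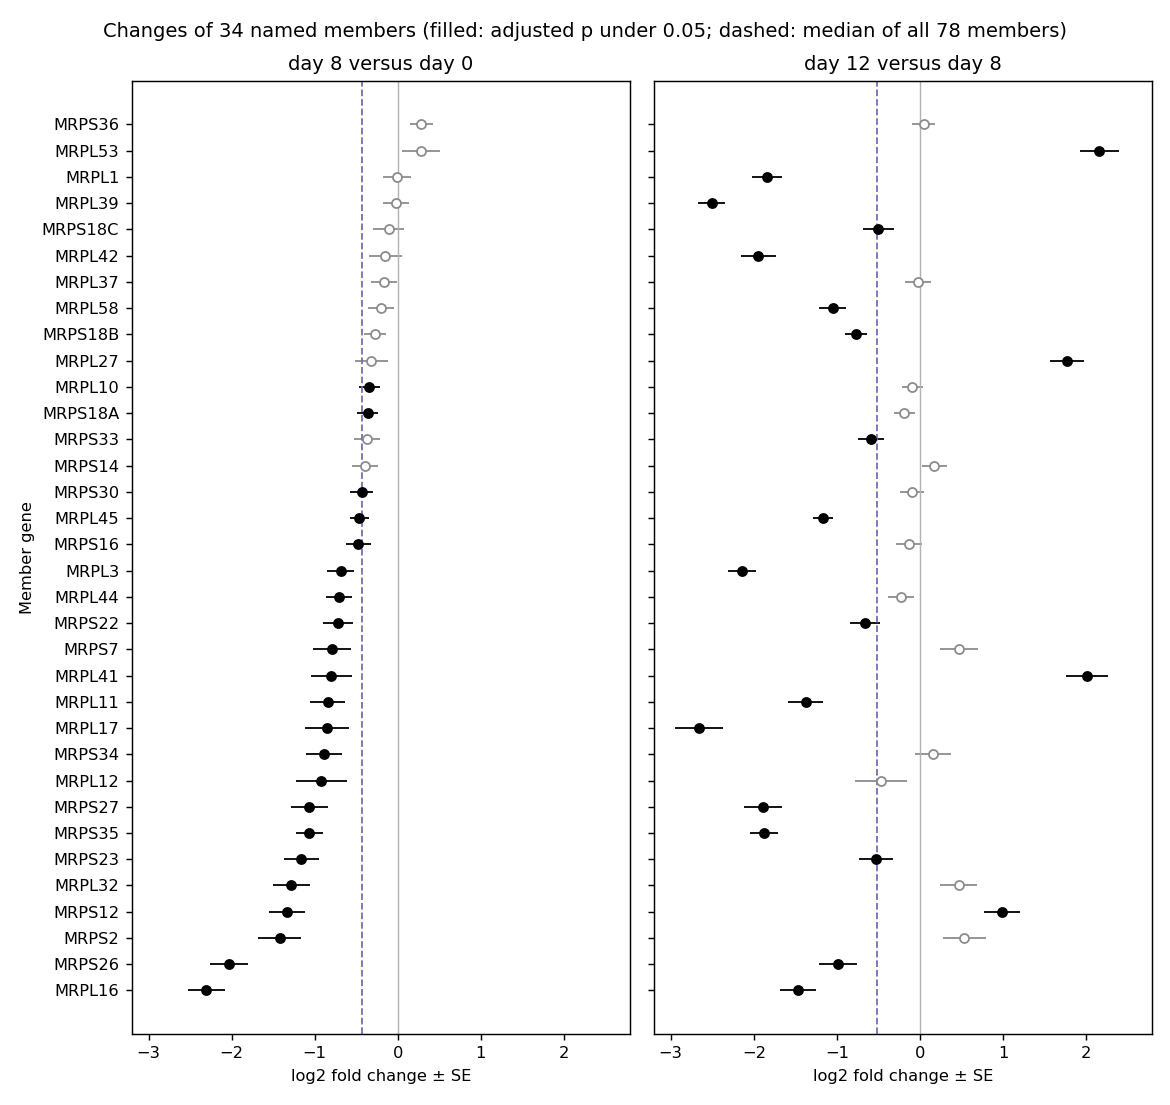
Log2 fold change ± SE of the 34 members named by rule, from day 0 to day 8 (left) and from day 8 to day 12 (right), filled where the adjusted p is under 0.05, with the median of the 78 members dashed (-0.43 and -0.51). No member lay above 0 with a call on the left, whereas on the right MRPL53, MRPL41, MRPL27 and MRPS12 lay above 0 and MRPL17, MRPL39 and MRPL3 lowest.

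Members with a known part in the ribosome changed unequally. MRPL10, MRPL12 and MRPL11 form and anchor the stalk that receives translation factors. MRPL12 read 84.4 and 82.5 CPM on day 0, 35.7 and 52.6 on day 8 and 22.0 and 41.9 on day 12, and it fell by 0.92 ± 0.31 (log2, SE) to day 8 (adjusted p = 0.0334) with no call to day 12, where the libraries overlapped. MRPL10 read 34.2 and 29.4 CPM on day 0, 25.9 and 24.4 on day 8, and 23.4 and 23.8 on day 12, a fall of 0.34 ± 0.12 by day 8. MRPL11 fell in both steps, from 62.0 and 51.4 CPM on day 0 through 27.6 and 35.7 to 9.52 and 14.8 on day 12. The protein with which MRPL12 forms the stalk, MRPL10, thus kept more of its day 0 level on day 12 than MRPL12 or MRPL11 in these means, a difference that was not tested. None of the 3 was called by day 8 without the ribosomal RNA-rich libraries, with changes of -0.64 for MRPL12, -0.36 for MRPL10 and -0.64 for MRPL11 (adjusted p = 0.244, 0.13 and 0.0874).

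MRPL45, at the tunnel exit facing the inner membrane, read 66.5 and 61.1 CPM on day 0, 43.8 and 48.8 on day 8, and 20.6 and 20.7 on day 12, and fell in both steps. MRPL44, with an RNase III-like fold, read 50.5 and 48.1 CPM on day 0, 26.3 and 34.0 on day 8, and 23.7 and 27.9 on day 12. In the main fit MRPL44 was called lower by day 8 and not from day 8 to day 12 (-0.22). This second change was -0.42 without the ribosomal RNA-rich libraries. MRPL58, a peptidyl-tRNA hydrolase that is also a subunit, read 36.8 and 29.9 CPM on day 0, 26.5 and 31.5 on day 8, and 12.3 and 15.7 on day 12. It was not called by day 8 and fell by 1.05 ± 0.16 to day 12. Without the ribosomal RNA-rich libraries MRPL44 was still called by day 8 (-0.51, adjusted p = 0.0455) and MRPL45 was not (-0.36, adjusted p = 0.0911).

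In the small subunit, MRPS35 and the pentatricopeptide protein MRPS27 fell in both steps. MRPS35 read 81.4 and 78.0 CPM on day 0, 30.5 and 45.6 on day 8, and 9.62 and 11.1 on day 12, and MRPS27 read 131 and 136, 53.5 and 74.1, and 15.9 and 18.5 on the same days. MRPS22, a member in which inherited defects cause mitochondrial disease, read 89.4 and 68.4 CPM on day 0, 47.8 and 48.2 on day 8, and 28.5 and 32.1 on day 12, and also fell in both steps. MRPS7, MRPS16 and MRPS34 fell by day 8 (0.79 ± 0.23, 0.47 ± 0.15 and 0.89 ± 0.22) and were not called from day 8 to day 12. None of these 3 was called by day 8 without the ribosomal RNA-rich libraries (adjusted p from 0.0819 to 0.183), nor was MRPS22 (-0.69, adjusted p = 0.055). MRPS35 (-0.78, adjusted p = 0.00334) and MRPS27 (-0.82, adjusted p = 0.0313) were.

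The 3 paralogs of the S18 family take different places, MRPS18B and MRPS18C in the small subunit and MRPS18A, despite its name, in the large subunit. MRPS18A fell by 0.36 ± 0.13 (log2, SE) by day 8 and was not called to day 12, with 55.9 and 48.9 CPM on day 0, 38.0 and 43.7 on day 8, and 33.0 and 38.7 on day 12. MRPS18B read 89.0 and 89.4, 69.9 and 77.9, and 37.6 and 49.0 CPM on these days, was not called by day 8 and fell by 0.77 ± 0.14 to day 12. MRPS18C read 32.1 and 24.2, 24.8 and 27.3, and 18.3 and 18.6 CPM and fell by 0.50 ± 0.19 to day 12, a call that was lost whenever a library of day 8 or 12 was left out. MRPS30, another protein of the large subunit with a small-subunit name, fell by 0.43 ± 0.14 by day 8 and was not called to day 12. Without the ribosomal RNA-rich libraries the day 8 changes of MRPS18A (-0.24) and MRPS30 (-0.35) were not called (adjusted p = 0.291 and 0.194). MRPS36, which belongs to the 2-oxoglutarate dehydrogenase complex and not to the ribosome, read 23.7 and 18.8 CPM on day 0, 25.4 and 26.5 on day 8, and 28.0 and 25.6 on day 12. Its change of 0.28 ± 0.14 by day 8 was not called (adjusted p = 0.123), and it was among the 9 members without a call in either step.

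The members that rose on day 12 had shorter and more GC-rich transcripts than those that fell. Mean transcript length had a median of 935 bases over the 14 that rose and 1479 bases over the 39 that fell, and the GC content of the longest coding transcript had medians of 58.2% and 44.1%. Across the 78 members the log2 fold change from day 8 to day 12 went with length at Pearson r = -0.48 and Spearman rho = -0.44, and with GC at r = 0.57 and rho = 0.55, given as descriptions of genes that share the same libraries. From day 0 to day 8 the values were -0.07 and -0.07 for length and -0.13 and -0.11 for GC. Over the 77 cytosolic ribosomal protein genes the change from day 8 to day 12 went with length at r = -0.27 and rho = -0.33 and with GC at r = 0.19 and rho = 0.23, over the 78 nuclear respiratory chain genes tested at r = -0.25 and rho = -0.29 for length and r = 0.23 and rho = 0.24 for GC (76 with a value), and over all 16784 genes with length at r = -0.07. Over the 12644 tested genes with a GC value (75.3%) this change went with GC at r = 0.13 and rho = 0.18. Both like groups and all genes had the signs of the members, with smaller values. Of the 20 members with the shortest transcripts (479 to 956 bases) 8 rose and 6 fell, and of the 20 with the longest (1786 to 15562 bases) 1 rose and 15 fell. Of all genes in these length ranges, 342 of 1366 rose and 267 fell, and 2884 of 11968 rose and 4447 fell. Length and GC were not separated here, and their part in the counts was not tested.

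Most members kept their leading transcript by the authors' estimates, although shares moved in many of them. Of the 53 members with more than 1 transcript, 45 had the same leading transcript on day 0 and day 12 and 8 another. Among those that kept it, NM_016050 of MRPL11 held 61.3% and 32.1% on day 0 and 83.2% and 79.9% on day 12. NM_016067 of MRPS18C went from 74.1% and 78.4% to 49.6% and 37.7%, whereas NM_016491 of MRPL37 stayed at 98.1% and 98.4% against 97.8% and 98.1%. The largest shifts, named after their values were seen, were in MRPL57, whose curated transcript NM_024026 held 90.5% and 89.7% of its TPM on day 0 and 32.3% and 13.8% on day 12, and in MRPS25, whose non-coding transcript NR_135247 rose from 17.0% and 6.03% to 75.1% and 77.6%. These shares are estimates that split reads among overlapping transcripts. NM_ transcripts together held from 90.7% to 94.5% of the members' counts in each library. Named pseudogenes exist for 42 members, up to 9 for MRPS21, and 32 members overlap another RefSeq gene, so that their values are less certain, including those of MRPL36, MRPL41, MRPL49, MRPS2, MRPS25, MRPS27 and MRPS34.

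Among other genes of mitochondrial translation, every call by day 8 in the 4 lists that follow was a fall, and many genes were not called. Of 5 ribosome subunits with other names, DAP3 (-0.43) and PTCD3 (-0.72) fell by day 8 and none rose, and by day 12 PTCD3 fell by 2.02 and AURKAIP1 rose by 1.43. Of 25 assembly and rRNA modification factors 10 fell and none rose by day 8, led by ERAL1, which binds the small-subunit RNA (-1.56), RPUSD4 (-1.26) and TFB1M, which methylates that RNA (-1.19). From day 8 to day 12, 17 of these fell and 4 rose, the latter being YBEY, MPV17L2, GRSF1 and MRM3. Of 15 translation factors 12 fell and none rose by day 8, with TUFM, the elongation factor that brings aminoacyl-tRNA, at -1.39, and 9 fell from day 8 to day 12. Of 17 mitochondrial aminoacyl-tRNA synthetases 9 fell by day 8, and from day 8 to day 12 16 fell and HARS2 rose. The shares of all genes given above (19.4% and 33.4% lower) apply beside these counts. Without the ribosomal RNA-rich libraries the falls by day 8 numbered 0 of the 5 subunits, 3 of the 25 factors, 5 of the 15 translation factors and 2 of the 17 synthetases, with TUFM (-1.16), RPUSD4 (-0.95) and TFB1M (-0.89) still called and ERAL1 not (-1.27, adjusted p = 0.0522).

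The regulators were mixed. Over all genes 19.4% fell and 17.7% rose by day 8. Of 12 genes tested for mitochondrial transcription and its control, 7 fell and 2 rose by day 8. TFAM (-1.18), POLRMT, the mitochondrial RNA polymerase (-1.18), TFB2M (-1.28) and GABPA, whose product reads the ETS letters shown above (-0.64), were among those that fell. NRF1 (0.64) and GABPB1 (0.76) rose, and YY1 changed by 0.11 with no call. All 6 of these calls held without the ribosomal RNA-rich libraries, when 4 of the 12 genes fell and 2 rose. From day 8 to day 12 YY1 rose by 1.64 and POLRMT by 1.12, TFAM fell by 2.05, and GABPA (0.30) and NRF1 (-0.02) were not called.

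Genes most like the members in kind showed other counts. Over all genes 17.7% rose and 19.4% fell by day 8, and 23.8% rose and 33.4% fell from day 8 to day 12. Of 77 cytosolic ribosomal protein genes 12 rose (15.6%) and 2 fell (2.6%) by day 8 (median 0.23). From day 8 to day 12, 20 of them rose (26%) and 9 fell (11.7%, median 0.18). Their shares of rises thus lay near those of all genes. Of 78 nuclear genes of the respiratory chain and ATP synthase that were tested, 4 rose (5.13%) and 17 fell (21.8%) by day 8 (median -0.22). From day 8 to day 12, 23 of them rose (29.5%) and 33 fell (42.3%, median -0.14). Their share of falls by day 8 lay near that of all genes. The difference of the members (median -0.43 and -0.51) from these groups was not tested. Without the ribosomal RNA-rich libraries 3 cytosolic ribosomal protein genes rose and none fell by day 8, and 3 respiratory chain genes rose and 4 fell. The 13 mitochondrial mRNAs that the ribosome translates had 1 call, a fall that was lost without those libraries, by day 8 (median -0.50) and 11 falls from day 8 to day 12 (median -1.27). The mitochondrial rRNAs RNR1 and RNR2, added after the tables were seen, were called higher by day 8 and from day 8 to day 12, by a median of 1.59 and 2.05. Together they read 11919 TPM on day 7 in the separate tables, in the library rich in nuclear ribosomal RNA, against 4672 in the table of all days, and 12374 and 10635 TPM on day 12. When the ribosomal RNA-rich libraries were left out, neither was called by day 8 (median 0.70) and both rose from day 8 to day 12. The study's methods name an mRNA kit for the libraries, and how far reads of RNR1 and RNR2 follow the level of these RNAs was not tested. Their link with nuclear ribosomal RNA was not tested.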

How the data were processed

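RNA-seq of 20 HUDEP-2 libraries was used as deposited. For library preparation the study's methods name a TruSeq stranded mRNA kit. Per the study's methods and the submitters' processing notes, the authors trimmed reads with Trimmomatic (0.38), aligned them with HISAT2 (2.1.0) and assembled and quantified RefSeq transcripts with StringTie (2.1.3b). The deposited tables give read counts, and TPM values made by the authors, per transcript. FPKM columns and a further day 0 column of the day 12 table (23 columns in all) were not used. Columns name the day and no replicate number.

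Counts were summed by gene symbol. edgeR (4.0.16, R 4.3.3) fitted all 20 libraries with filterByExpr, TMM and a coefficient per day, and quasi-likelihood tests were adjusted by Benjamini-Hochberg over the 16784 genes tested (threshold 0.05). All 78 members passed the filter. SE is on the log2 scale. Normalized CPM is the count relative to the TMM-scaled library size. limma (3.58.1) was used for log2(TPM + 1) and log2(TPM + 0.1), and DESeq2 (1.42.0) as an alternative on counts. A count of 3 corresponds to 0.0426 to 0.0575 CPM in these libraries, a floor that covers counting error only. Sequence comes from RefSeq GRCh38.p14.

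Named members were, for each comparison, the 3 with the largest rise and the 3 with the largest fall among those called, members with a known role, and the 3 with the highest and lowest mean TPM (34 in all). Members, lists and comparisons were chosen with earlier results of these data known.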

Additional observations from a re-analysis of the deposited data

How the results depend on the processing

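No paired analysis was possible because the columns carry the day and no replicate number, and the block fitted below is the table set, not a replicate. Counts of members are given here as higher and lower. From day 0 to days 4 to 6 (1 and 7), they were 2 and 11 with DESeq2, 0 and 15 with limma on log2(TPM + 1) or log2(TPM + 0.1), 0 and 4 with no filter beyond 1 count, 2 and 3 with NM_ transcripts alone, 3 and 15 with a block for the table set, and 2 and 5 without the day 7 and 8 libraries rich in ribosomal RNA, an alternative chosen after seeing the data. Leaving out single libraries gave 0 to 1 and 1 to 7. From days 4 to 6 to day 8 (0 and 31), they were 0 and 73 or 71 on the TPM scales, 1 and 45 with the block, 0 and 2 without the ribosomal RNA-rich libraries, and 0 and 2 to 35 as single libraries were left out, the lowest without the day 8 library of the separate tables. From day 8 to day 12 (14 and 39), they were 2 and 68 on both TPM scales and 9 to 16 and 34 to 40 as single libraries were left out. From day 0 to day 8 (0 and 42), they were 0 and 69 or 68 on the TPM scales, 1 and 36 with upper-quartile scaling, 2 and 44 with the block, 0 and 21 with the libraries of these days alone, 0 and 29 with edgeR's exact test, 0 and 19 without the ribosomal RNA-rich libraries, and 0 and 19 to 37 as single libraries were left out. Calls over all 16784 genes moved with the setting as well. From days 4 to 6 to day 8, 2001 genes were higher and 1815 lower in the main fit. These counts were 695 and 5213 on log2(TPM + 1), and 2938 and 3166 with the block. From day 8 to day 12 they were 3997 and 5611 in the main fit and 1407 and 8997 on log2(TPM + 1). From day 0 to day 8 they were 2970 and 3254 in the main fit, 1223 and 6660 on log2(TPM + 1), and 3796 and 4310 with the block. The cause of these differences was not tested.

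Among 2482 values of the 34 named members under alternatives, 2153 kept their side of the threshold, 193 lost the call, 122 gained it and 14 reversed. A reversal is a change of sign with a call in the main or the alternative fit. Changes of sign between values without a call are counted among the 2153. All reversals were from day 8 to day 12 on the scales log2(TPM + 1) and log2(TPM + 0.1), where the log2 changes were -0.95 and -0.99 for MRPL32, -0.46 and -0.47 for MRPS12, -1.09 and -1.28 for MRPS14, -0.89 and -0.92 for MRPS2, -1.28 and -1.31 for MRPS34, -1.33 and -1.39 for MRPS36, and -0.94 and -0.96 for MRPS7. Members outside the 34 were not counted for reversals. Among them, MRPL48 was called lower from day 8 to day 12 in the main fit. Its change ranged from -1.26 to 0.45 over the count-based fits, so that its sign depended on the setting. With NM_ transcripts alone the summed TPM was 8022 on day 0 and 1321 on day 12, and without globin it was 5458 on day 8 and 3709 on day 12. TMM without globin or ribosomal RNA genes and a minimum of 10 counts in every library left each count within 1.5 times. Each day has 2 libraries, and the lowest count of a member in a library was 86.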
